A study of Homo sapiens with 12 samples.

Results

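The genes of MHC class II antigen presentation were followed across 3 human ovarian cell lines in bulk RNA-seq. The 10 genes were taken by name out of 61533 gene IDs in the tables: the chains HLA-DRA, HLA-DRB1, HLA-DPA1, HLA-DPB1, HLA-DQA1 and HLA-DQB1, the peptide editor chains HLA-DMA and HLA-DMB, the invariant chain CD74 and the transactivator CIITA. PEO-4 is a high-grade serous ovarian carcinoma line, SKOV-3 an ovarian carcinoma line that the study describes as clear cell, and T1074 an SV-40-immortalized line of ovarian epithelial cells. Each line was grown untreated in a medium of its own and gave 4 libraries. Each group is 1 cell line, so the line, its disease class and its medium cannot be told apart, and a p-value sets a difference only against the spread among libraries of 1 line.

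Class II molecules are pairs of an alpha and a beta chain that carry peptides from endosomes to the cell surface, where CD4+ T cells read them. The chains assemble on CD74, which fills the peptide groove and guides the complex to the endosome, and HLA-DM then exchanges the last fragment of CD74 for other peptides. CIITA does not bind DNA itself. It docks onto the RFX, CREB and NF-Y factors that sit on short, evenly spaced elements (the S, X and Y boxes) upstream of these genes. Dendritic cells, B cells and macrophages use the pathway without a stimulus, and most epithelial cells turn it on after interferon gamma. CD74 is also transcribed in cells that lack the class II chains.

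The libraries held 19780836 to 55739060 expected counts, lowest in T1074 replicate 1. Of all gene IDs, 19898 passed the filter on low counts and were tested, 8 of the 10 members among them. HLA-DQA1 and HLA-DQB1 did not pass. The carcinoma lines carried epithelial markers: EPCAM had 5493 to 7761 counts in PEO-4 libraries and 1055 to 1345 in SKOV-3 libraries, against 2 to 6 in T1074 libraries. PAX8, a Müllerian factor, had 3278 to 5453 counts in PEO-4 libraries and 3889 to 5412 in SKOV-3 libraries, against 0 to 8 in T1074 libraries. WT1 and MSLN, markers of ovarian surface and serous cells, had 162 and 438 CPM in PEO-4 and 0.943 and 10.4 in SKOV-3, against 22.5 and 13.3 in T1074. T1074 thus had EPCAM and PAX8 near 0 but had WT1 and MSLN. In T1074, KRT7, KRT8 and KRT18 were present too, at 157 ± 76.5, 616 ± 304 and 328 ± 161 CPM (SD, n = 4). Of 6 epithelial markers, 4 were higher and 0 lower in PEO-4 than in T1074, and 4 were higher and 1 lower in SKOV-3. Over all genes, 36.3% were higher and 37.8% lower in PEO-4, and 33.3% and 34.5% in SKOV-3. KRT8 was not called in either line (584 CPM in PEO-4 and 437 in SKOV-3), and KRT18 was lower in SKOV-3 (150 CPM). Values below are expected counts, which RSEM may split into fractions, or CPM, which are counts scaled to a common library total with TMM factors, and a fold change is given on the log2 scale with its standard error.

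HLA-DR, the most abundant class II molecule of antigen-presenting cells, was transcribed in PEO-4. The alpha chain gene HLA-DRA (ENSG00000204287.14, chr6:32439878-32445046, plus strand, hg38) had 312, 264, 354 and 420 counts in the PEO-4 libraries, against 0 in all 4 SKOV-3 libraries and 0 in all 4 T1074 libraries. The SKOV-3 and T1074 libraries thus held no read of it. In CPM the PEO-4 values were 9.14, 6.37, 7.61 and 9.08, with a mean of 8.05 ± 1.33 (SD, n = 4). Taking 3 counts per library as the limit that a count of 0 allows, HLA-DRA was at least 133-fold higher in PEO-4 than in SKOV-3 (adjusted p = 6.58e-08) and at least 87.6-fold higher than in T1074 (adjusted p = 9.75e-08, edgeR quasi-likelihood test with Benjamini-Hochberg adjustment, as throughout). HLA-DRA passed the filter on low counts through PEO-4 alone, so these p-values are no support of their own. The fold limits, and the counting intervals given below, cover counting error only, since the reads carried no molecular identifiers. In bulk RNA, fewer cells with a transcript and less transcript per cell cannot be told apart.

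HLA-DRB1, which encodes the variable beta chain of HLA-DR (ENSG00000196126.11, chr6:32577902-32589848, minus strand), had 71.56, 74, 71.67 and 105.18 counts in PEO-4, 3, 3, 1 and 5 in SKOV-3, and 0 in the T1074 libraries. The PEO-4 mean was 1.92 ± 0.326 CPM (SD, n = 4). It was at least 20.9-fold higher in PEO-4 than in T1074 (adjusted p = 8.60e-08). The ratio of PEO-4 to SKOV-3 was 31.7, with a 95% exact binomial counting interval of 17.9 to 62.0 (log2 fold change 4.93 ± 0.37, adjusted p = 2.34e-07). The 12 counts of the SKOV-3 libraries passed the test against 0 in T1074 (adjusted p = 0.00248), but they lie at the limit of 3 counts per library and no fold is given. HLA-DRB1 also passed the filter through PEO-4 alone, so its p-values are no support of their own.

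Reads of HLA-DRB1 can also fit HLA-DRB5, a second DR beta gene carried on some haplotypes, and RSEM divides them. HLA-DRB5 had 19.44, 19, 15.33 and 25.82 counts in PEO-4, 2, 0, 0 and 0 in SKOV-3 and 0 in all T1074 libraries. It made up 17.6 to 21.4% of the sum of both genes in PEO-4. That sum, 91, 93, 87 and 131 counts in PEO-4 against 5, 3, 1 and 5 in SKOV-3 and 0 in T1074, was a whole number in all 12 libraries (within 0.01). The sum therefore kept the order of the lines without depending on the division between these genes. HLA-DRB3 and HLA-DRB4, other DR beta genes, were not analysed. The class II genes are also among the most variable in the genome, and reads were counted on the reference haplotype; how far the alleles of each line differ from it was not examined.

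HLA-DP was low in PEO-4 and in T1074, and lower in SKOV-3. The alpha chain gene HLA-DPA1 (ENSG00000231389.8, chr6:33064569-33080775, minus strand) had 7, 16, 14 and 26 counts in PEO-4, 1, 2, 1 and 2 in SKOV-3, and 4, 17.01, 13 and 9 in T1074. PEO-4 and T1074 overlapped, at 0.364 ± 0.152 and 0.283 ± 0.0874 CPM (SD, n = 4 each), and did not pass the test (0.33 ± 0.35, adjusted p = 0.395). SKOV-3 was lower than T1074 (ratio 0.101, counting interval 0.0353 to 0.239, adjusted p = 4.07e-05), and PEO-4 was higher than SKOV-3 (ratio 12.4, counting interval 5.39 to 35.1, adjusted p = 8.13e-06).

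HLA-DPB1, the beta chain gene (ENSG00000223865.11, chr6:33075990-33089696, plus strand), had 26, 18, 25 and 30.01 counts in PEO-4, 1, 1, 0 and 0 in SKOV-3, and 9, 15, 10 and 9 in T1074. PEO-4 libraries lay between 0.434 and 0.761 CPM and T1074 libraries between 0.224 and 0.452 CPM, so that the groups overlapped. The difference between PEO-4 and T1074 was 0.95 ± 0.34 (adjusted p = 0.0206), and this call was lost when T1074 replicate 3 (adjusted p = 0.0537) or replicate 4 (adjusted p = 0.0628) was left out. SKOV-3, with 2 counts in all, was lower than T1074 (ratio 0.0338, counting interval 0.00397 to 0.130, adjusted p = 6.78e-06) and lower than PEO-4, whose ratio to SKOV-3 was 58.5 (counting interval 15.8 to 489, adjusted p = 2.93e-07). The HLA-DPA1 and HLA-DPB1 exons overlap by 96 bases on opposite strands. The library kit keeps strand, but whether the counting used it is not given in the sources used here.

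HLA-DQ was at or near 0. HLA-DQA1 (ENSG00000196735.13, chr6:32628179-32647062, plus strand) had 0 counts in all 12 libraries. HLA-DQB1 (ENSG00000179344.17, chr6:32659467-32668383, minus strand) had 2, 0, 0 and 2 counts in PEO-4, 0, 2, 0 and 0 in SKOV-3 and 0 in T1074. At these depths 3 counts correspond to 0.0724 CPM in PEO-4, 0.0605 in SKOV-3 and 0.0918 in T1074, so HLA-DQ was not detectable beyond these limits in any line. The same reference-haplotype limit holds here.

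CD74, the invariant chain gene (ENSG00000019582.17, chr5:150401637-150412969, minus strand), followed another pattern than HLA-DR. It had 619, 536, 590 and 951 counts in PEO-4, 73, 103, 55 and 85 in SKOV-3, and 150, 501, 1035 and 660 in T1074. PEO-4 and T1074 overlapped at 16.1 ± 3.91 and 15.2 ± 7.69 CPM (SD, n = 4 each), with single T1074 libraries at 7.53, 11.5, 25.4 and 16.4 CPM. The difference between them did not pass the test (0.07 ± 0.30, adjusted p = 0.833), and the sign of this value turned without T1074 replicate 1 (-0.14) or replicate 2 (-0.06). SKOV-3, at 1.58 ± 0.352 CPM (SD, n = 4), lay below every library of both other lines. Its difference from T1074 was -3.27 ± 0.33 (adjusted p = 7.85e-07), and that of PEO-4 from SKOV-3 was 3.34 ± 0.33 (adjusted p = 4.66e-07). T1074 thus had 7.53 to 25.4 CPM of CD74 beside 0 counts of HLA-DRA, HLA-DRB1 and HLA-DQA1.

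HLA-DM, the peptide editor, was the one class II pair with more than 3 counts in every SKOV-3 library. HLA-DMA (ENSG00000204257.15, chr6:32948613-32969094, minus strand) had 243.01, 361, 416 and 300 counts in PEO-4, 71, 85, 70 and 77 in SKOV-3, and 5, 42, 43 and 45 in T1074. The means were 7.81 ± 1.20, 1.52 ± 0.108 and 0.846 ± 0.402 CPM in PEO-4, SKOV-3 and T1074 (SD, n = 4 each), and the 3 lines did not overlap. PEO-4 was higher than T1074 by 3.13 ± 0.28 (adjusted p = 1.61e-07) and higher than SKOV-3 by 2.36 ± 0.27 (adjusted p = 1.63e-06). SKOV-3 was higher than T1074 by 0.78 ± 0.28 (adjusted p = 0.0248). HLA-DMA exons overlap those of BRD2 by 55 bases on the opposite strand. BRD2 had 5434 to 9276 counts in PEO-4 libraries and 7779 to 9497 in SKOV-3 libraries, against 2069 to 7201 in T1074 libraries, and its part in the lower HLA-DMA counts was not tested. The difference between SKOV-3 and T1074 was lost without SKOV-3 replicate 2 (adjusted p = 0.0526) and with scaling by library size alone (0.57, adjusted p = 0.113).

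HLA-DMB, the beta chain of the same editor (ENSG00000242574.9, chr6:32934629-32941028, minus strand), had 85, 79.44, 120.4 and 124 counts in PEO-4, 180, 281, 138 and 305 in SKOV-3, and 0, 2, 0 and 0 in T1074. It was the only tested member that was lower in PEO-4 than in SKOV-3. The PEO-4 libraries lay at 2.49, 1.92, 2.59 and 2.68 CPM and the SKOV-3 libraries at 3.51, 5.40, 2.95 and 6.25 CPM, without overlap. PEO-4 differed from SKOV-3 (log2 fold change -0.91 ± 0.28, adjusted p = 0.00901). The ratio to T1074 was 176 for PEO-4 (counting interval 48.3 to 1455, adjusted p = 2.83e-08) and 329 for SKOV-3 (counting interval 90.7 to 2718, adjusted p = 8.21e-09). The alpha and beta chains of HLA-DM therefore stood in different proportion in the carcinoma lines. Per kilobase of transcript, the ratio of HLA-DMA to HLA-DMB was 4.78 in PEO-4 (3.49 to 6.55 over 4 libraries) and 0.525 in SKOV-3 (0.364 to 0.731).

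CIITA, the master regulator of the class II genes (ENSG00000179583.20, chr16:10866222-10943021, plus strand), had 538, 421.28, 533 and 709.59 counts in PEO-4, 161, 159, 161 and 148 in SKOV-3, and 12, 28, 47.73 and 38.3 in T1074. The means were 13.2 ± 2.79, 3.17 ± 0.188 and 0.841 ± 0.269 CPM in PEO-4, SKOV-3 and T1074 (SD, n = 4 each), without overlap between any pair of lines. PEO-4 was higher than T1074 by 3.94 ± 0.23 (adjusted p = 1.59e-09) and higher than SKOV-3 by 2.06 ± 0.20 (adjusted p = 3.64e-07). SKOV-3 was higher than T1074 by 1.88 ± 0.22 (adjusted p = 3.67e-06), while HLA-DRA remained at 0 counts in both of these lines. CIITA exons overlap those of DEXI by 2424 bases on the opposite strand and those of ENSG00000280153 by 2378 bases on the same strand. DEXI had 935 to 1298 counts in PEO-4 libraries and 1539 to 1787 in SKOV-3 libraries, against 253 to 833 in T1074 libraries. ENSG00000280153 had 2.24 to 21.17 counts in PEO-4 libraries, 3.44 to 15.0 in SKOV-3 libraries and 4.7 to 13.16 in T1074 libraries, where CIITA itself was low. How many reads could have moved between these genes and CIITA was not tested.

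**Figure D1:**
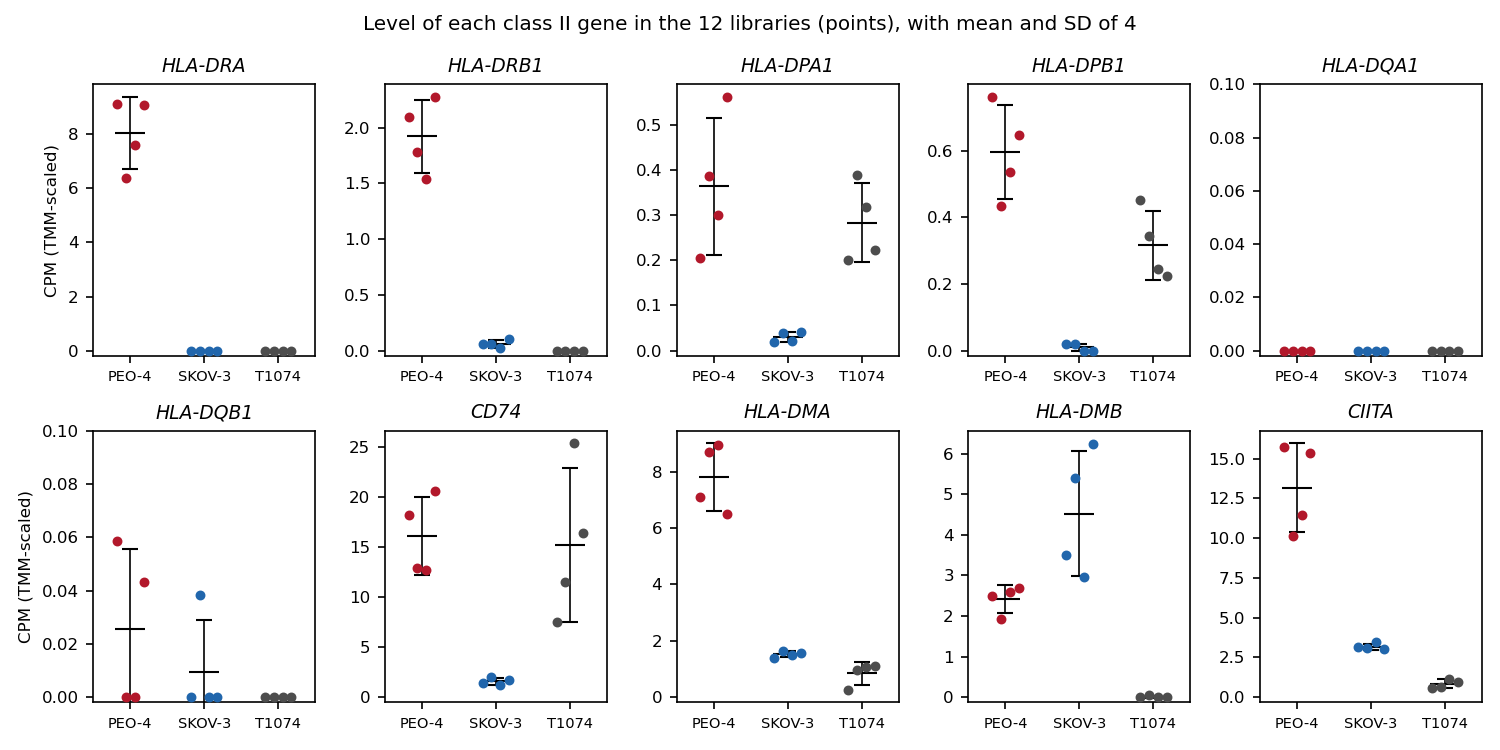
Level of each class II member in CPM (vertical axis, linear and of its own range in each panel), 1 panel a gene, with 1 point a library and the mean ± SD of PEO-4, SKOV-3 and T1074 (n = 4 each). HLA-DRA has points above 0 only in PEO-4 (6.37 to 9.14 CPM), CD74 is low only in SKOV-3 (1.18 to 1.98 CPM), and for HLA-DMB the PEO-4 points (1.92 to 2.68 CPM) lie below those of SKOV-3 (2.95 to 6.25 CPM).

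Counted over the members, 6 of the 8 tested were higher in PEO-4 than in T1074, 0 were lower and 2 (CD74 and HLA-DPA1) did not pass. Among all genes tested, 36.3% were higher and 37.8% lower in that comparison. The median fold change of the 8 members was 3.54, beside -0.01 over all genes. Between SKOV-3 and T1074, 4 of 8 were higher (CIITA, HLA-DMA, HLA-DMB and HLA-DRB1), 3 were lower (CD74, HLA-DPA1 and HLA-DPB1) and 1 did not pass, against 33.3% higher and 34.5% lower among all genes. The members called thus split in direction, as all genes did. The median over the 6 members for which a fold could be given was -1.19, the fitted median over all 8 was 0.39, and that over all genes was -0.03. Between PEO-4 and SKOV-3, 7 of 8 were higher and HLA-DMB alone was lower, against 38.5% higher and 36.7% lower among all genes, with medians of 3.41 for the members and 0.05 for all genes. HLA-DRA and HLA-DRB1 passed the filter through PEO-4 alone, so these counts and medians describe the members and are no support of their own. The comparisons share libraries, so they are not independent of each other.

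**Figure D2:**
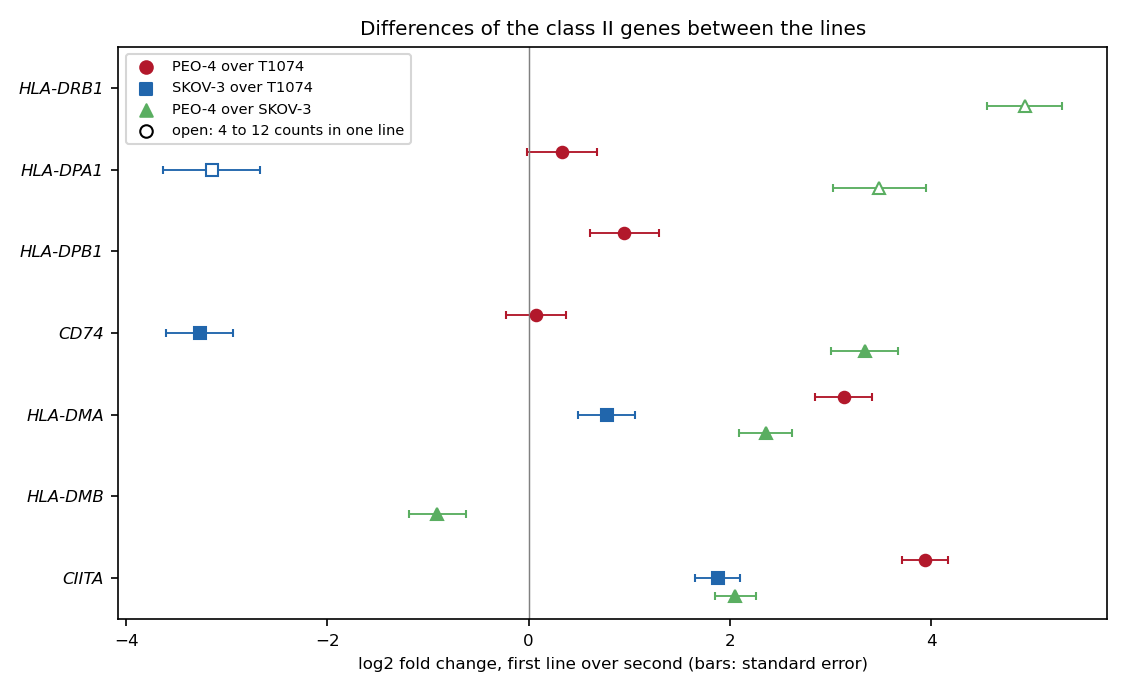
Log2 fold change (horizontal axis) with its standard error for each member in the 3 comparisons, first line over second, with open symbols where a line had 4 to 12 counts in all and no symbol where it had 3 or fewer. CD74 lies at 0.07 for PEO-4 over T1074 and at -3.27 for SKOV-3 over T1074, while CIITA is above 0 in all 3 comparisons (3.94, 1.88 and 2.06).

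Within a line, levels of different genes were ordered by TPM, a transcript measure of the deposited tables that takes out transcript length. In PEO-4, CD74 came first at 3.75 ± 0.869 TPM, then HLA-DMA at 2.5 ± 0.634 and HLA-DRA at 2.11 ± 0.313 (SD, n = 4). CIITA at 0.788 ± 0.186, HLA-DMB at 0.675 ± 0.137 and HLA-DRB1 at 0.505 ± 0.0785 TPM followed, and HLA-DMA and HLA-DRA, like CIITA and HLA-DMB, lay within 1 SD of each other. HLA-DPB1 at 0.153 and HLA-DPA1 at 0.0975 TPM stood below them. In SKOV-3 the order was HLA-DMB at 1.27 ± 0.340, HLA-DMA at 0.558 ± 0.0896, CD74 at 0.440 ± 0.0548 and CIITA at 0.188 ± 0.0556 TPM, with the remaining members at 0.02 TPM or less. HLA-DMA and CD74 lay little more than 1 SD apart there, and HLA-DMB stood clear of both. In T1074, CD74 at 5.96 ± 2.19 TPM was far above HLA-DMA at 0.458 ± 0.239, HLA-DPA1 at 0.14, HLA-DPB1 at 0.138 and CIITA at 0.07 ± 0.0294 TPM. TPM is not compared between lines here, because protein-coding genes held only 11.4 to 25.8% of it in a library. The ratio of CD74 to HLA-DMA per kilobase, taken within libraries, was 1.65 in PEO-4, 0.789 in SKOV-3 and 15.4 in T1074 (9.11 to 22.9).

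The tables resolve transcripts, and 16 transcripts of the members passed the filter. Of these 16, 11 were called in each comparison, against 41.9% of all transcripts tested between PEO-4 and T1074, 36.2% between SKOV-3 and T1074 and 45.0% between PEO-4 and SKOV-3. Several of the 16, those of HLA-DRA and HLA-DRB1 among them, passed the filter through PEO-4 alone. These counts therefore describe the transcripts and are no support of their own. CD74 has a long form, whose extra exon encodes an inhibitor of cysteine proteases (ENST00000009530.13, 888 coding bases) and a shorter main form (ENST00000353334.11, 696 coding bases). The shorter form held 62.5 to 74.7% of CD74 counts in PEO-4 libraries, 59.4 to 73.3% in SKOV-3 libraries and 68.2 to 71.6% in T1074. The long form held 19.7 to 31.2%, 12.5 to 29.4% and 19.6 to 27.9% in PEO-4, SKOV-3 and T1074. Both the shorter form (log2 fold change -3.25, adjusted p = 4.72e-05) and the long form (-3.11, adjusted p = 0.000409) were lower in SKOV-3 than in T1074, and their shares overlapped between the lines. Neither form passed between PEO-4 and T1074 (0.05, adjusted p = 0.929, and 0.32, adjusted p = 0.600).

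CIITA is transcribed from several promoters, of which the first annotated one is known for dendritic cells, a later one for B cells and the last for induction by interferon gamma. Transcripts starting between bases 10877198 and 10877331 of chromosome 16 held most of the count, 92.7 to 95.7% in PEO-4 libraries, 91.6 to 96.6% in SKOV-3 libraries and 71.4 to 86.7% in T1074 libraries. The first annotated starts, at bases 10866222 to 10866260, had 0 counts in PEO-4, 1.85 in SKOV-3 and 0.32 in T1074, summed over 4 libraries. The start at base 10878969 had 52.9 counts in PEO-4, 10.56 in SKOV-3 and 0 in T1074. Starts further into the gene held 13.3 to 28.0% of the T1074 count. RSEM assigned these shares by a model, mostly from exons that the transcripts have in common, so they do not measure promoter use.

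Among the CIITA transcripts that start together, ENST00000324288.14 (16061 bases, 3390 of them coding) was the main one, with 54.7 to 62.1% of the gene's count in PEO-4 libraries, 67.1 to 83.5% in SKOV-3 libraries and 67.6 to 86.7% in T1074. ENST00000618327.4 (4657 bases, 3393 coding) held 18.9 to 26.0% in PEO-4 libraries, 0 to 15.0% in SKOV-3 libraries and 0 to 3.75% in T1074 libraries. Only PEO-4 met the filter on low counts for this transcript in every library, so its fold is no support of its own. ENST00000618327.4 was higher in PEO-4 than in SKOV-3 by 3.34 ± 0.88 (adjusted p = 0.00901), where the main transcript was higher by 1.62 ± 0.25 (adjusted p = 0.000245). The difference between these folds was not tested. For HLA-DMB, the main transcript ENST00000418107.3 held 64.4 to 73.4% of the count in PEO-4 libraries and 86.4 to 91.7% in those of SKOV-3, and was lower in PEO-4 than in SKOV-3 (log2 fold change -1.38, adjusted p = 0.00680). For HLA-DMA, ENST00000374843.9 was higher in SKOV-3 than in T1074 by 1.27 (adjusted p = 0.00759), and 3 other HLA-DMA transcripts did not pass there.

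**Figure D3:**
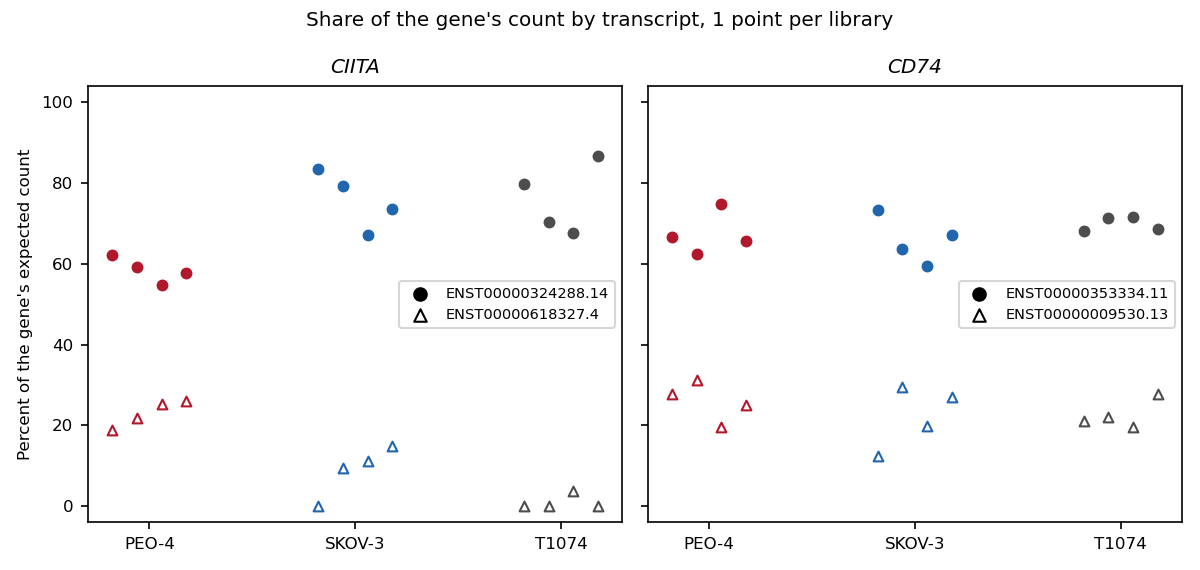
Share of the expected count of CIITA and of CD74, in percent (vertical axis), taken by 2 transcripts of each gene, with 1 point a library in PEO-4, SKOV-3 and T1074. The CD74 forms have overlapping shares in the 3 lines, whereas CIITA transcript ENST00000618327.4 reaches 18.9 to 26.0% in PEO-4 libraries and at most 3.75% in T1074 libraries.

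Letters of the elements that CIITA's partners read were searched upstream of the members, and the matches differed between members. Sequences 250 bases before to 50 bases after the RefSeq start (GRCh38.p14) were at hand for 8 of the 10 members, and not for HLA-DRA and CIITA. The searched letters were ATTGG, the core of the Y box that NF-Y binds, found on either strand in 34.6% of 35116 such windows; TGACG, a core of the CREB-bound side of the X box, in 24.6%; ACAGATG, an end of the X box that RFX binds, in 3.90%; and CTGATGATG, a second form of the X box with its CREB-bound tail, in 0.271%. The last, and the spacing rules used below, were chosen after the member windows had been read, so how rare they are describes these windows and tests nothing. HLA-DPA1 had 2 windows, at an outer and an inner start, and the inner one held no match near its start. Shown are the stretches around matches within 135 bases of the start, 5′ to 3′ on the gene's strand, with the matches on either strand in capitals (CCAAT is ATTGG, and CGTCA is TGACG, on the other strand).
HLA-DRB1, chr6:32589880-32589932, minus strand: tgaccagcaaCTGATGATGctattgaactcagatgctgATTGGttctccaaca
HLA-DMA, chr6:32953132-32953215, minus strand: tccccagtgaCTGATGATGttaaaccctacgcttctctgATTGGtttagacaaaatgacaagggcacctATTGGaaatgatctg
HLA-DMB, chr6:32941036-32941138, minus strand: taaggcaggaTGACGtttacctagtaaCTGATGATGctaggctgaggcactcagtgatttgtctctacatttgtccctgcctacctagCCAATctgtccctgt
HLA-DQB1, chr6:32666707-32666784, minus strand: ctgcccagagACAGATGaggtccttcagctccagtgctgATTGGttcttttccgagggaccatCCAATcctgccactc
HLA-DPB1, chr6:33075881-33075929, plus strand: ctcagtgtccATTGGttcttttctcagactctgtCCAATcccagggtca
CD74, chr5:150412949-150412973, minus strand: ccctgggcagCCAATgggatcgtgc
HLA-DQA1, chr6:32637328-32637352, plus strand: gatttttctaATTGGccaaaacctg
HLA-DPA1, outer start, chr6:33080791-33080815, minus strand: gccccagctcCGTCAccgcccggaa

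CTGATGATG followed by ATTGG on the gene's strand, 10 to 35 bases on, stood in 4 of the 35116 windows, those of HLA-DMA, HLA-DOB, HLA-DRB1 and THBS3. In HLA-DRB1 the matches began 74 and 46 bases before the start, and in HLA-DMA 108 and 79 bases before it, with a further ATTGG at 49. HLA-DMB had CTGATGATG at 83 bases before its start with TGACG at 100, but its ATTGG lay on the other strand at 22. HLA-DQB1, which was at or near 0 in all lines, carried ACAGATG at 117 and ATTGG at 88 bases before its start, a pair with that spacing rule met in 18 windows in all. HLA-DRB1 and HLA-DMA, the tested members with the pair, both had their highest mean level in PEO-4. So did CD74, HLA-DPA1 and HLA-DPB1, whose windows lack the pair, though CD74 and HLA-DPA1 were not called between PEO-4 and T1074. HLA-DQA1, at 0 counts in all 12 libraries, had ATTGG at 68 bases before its start. A match is a description of these letters and not a measured binding site.

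**Figure D4:**
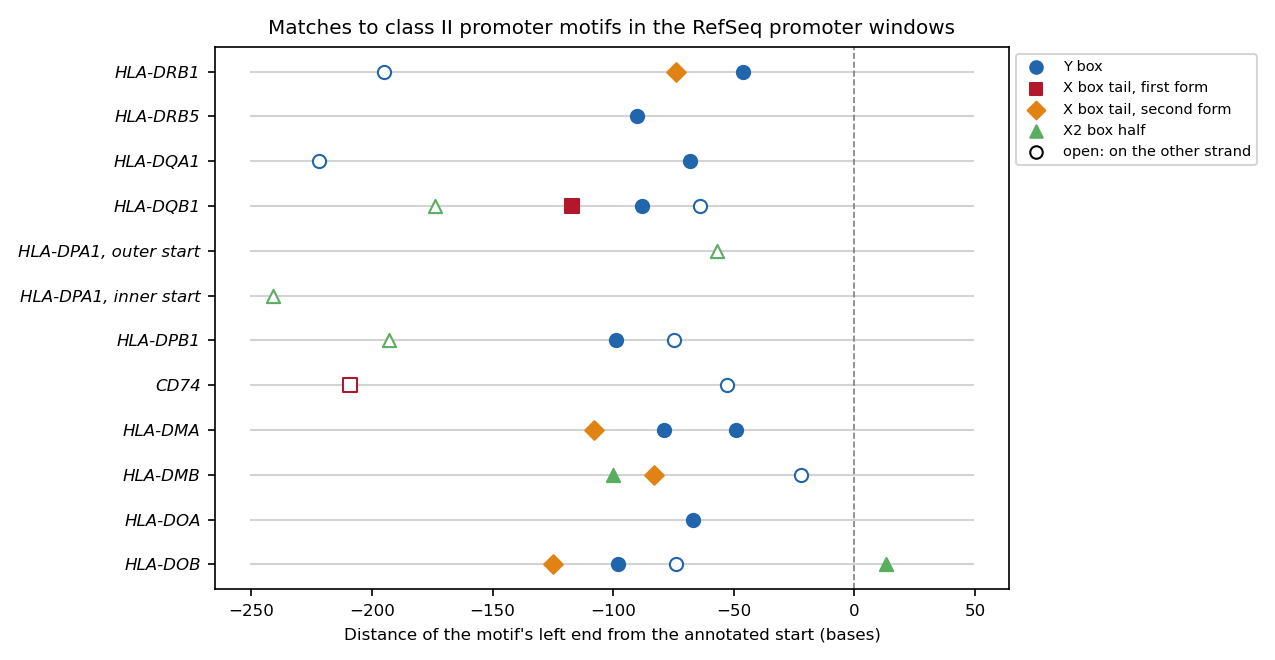
Left end of each match in the RefSeq promoter windows of class II genes, in bases from the start site (horizontal axis), 1 row a gene (HLA-DPA1 has 2), with circles for ATTGG (Y box), squares for ACAGATG, diamonds for CTGATGATG (X box forms) and triangles for TGACG (X2 box), open where the match is on the other strand. A diamond followed by a filled circle stands in the HLA-DRB1, HLA-DMA and HLA-DOB rows, at -74 and -46 in HLA-DRB1.

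The other class II genes were taken as a list of 10, of which 8 were in the tables and 1, HLA-DRB5, passed the filter. HLA-DRB3 and HLA-DRB4 were not among the 8. The remaining duplicate genes, HLA-DPA2, HLA-DPB2, HLA-DQA2, HLA-DQB2 and HLA-DRB6, had no more than 1 count in any library. HLA-DOA, a chain of the inhibitor of HLA-DM, had 26, 18, 8 and 23 counts in PEO-4, 0, 0, 0 and 1 in SKOV-3 and 0, 7, 1 and 1 in T1074. Its ratio of PEO-4 to T1074 was 7.16 (counting interval 3.58 to 16.3), with no test since it did not pass the filter. HLA-DOB, its partner chain, had at most 13.1 counts in PEO-4, 2.02 in SKOV-3 and 14.2 in T1074.

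The factors that hold CIITA on the promoters were transcribed in all 3 lines, and 1 of the 7, NFYA, had the order of CIITA with all 3 comparisons called. Of the 7 (RFX5, RFXAP, RFXANK, NFYA, NFYB, NFYC, CREB1), 2 were higher, 4 lower and 1 not passed in PEO-4 against T1074. Among all genes tested, 36.3% were higher and 37.8% lower there. RFX5, the DNA-binding part of RFX, had 28.4 ± 5.93 CPM in PEO-4, 34.6 ± 1.55 in SKOV-3 and 72.3 ± 18.0 in T1074 (SD, n = 4 each), a difference of -1.35 (adjusted p = 5.10e-06) for PEO-4 and of -1.06 (adjusted p = 6.06e-05) for SKOV-3 against T1074. RFXAP, its accessory protein, was the least abundant, at 1.65, 5.00 and 6.35 CPM in PEO-4, SKOV-3 and T1074, and PEO-4 was lower than T1074 (log2 fold change -1.95, adjusted p = 8.42e-08). NFYA, the sequence-reading subunit of NF-Y, was at 48.3, 30.0 and 17.6 CPM in PEO-4, SKOV-3 and T1074 (1.46 for PEO-4 against T1074, adjusted p = 4.72e-09, 0.77 for SKOV-3 against T1074, adjusted p = 4.37e-06, and 0.69 for PEO-4 against SKOV-3, adjusted p = 9.60e-06). Against T1074, 3 of the 7 were higher and 3 lower in SKOV-3, beside 33.3% higher and 34.5% lower over all genes. The complex had medians of -0.40, -0.34 and -0.29 in PEO-4 against T1074, SKOV-3 against T1074 and PEO-4 against SKOV-3.

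The route from interferon gamma to CIITA had no transcript of the cytokine: IFNG was at 0 in all 12 libraries. Of its 10 tested genes, 1 was higher and 5 lower in PEO-4 than in T1074, and 3 were higher and 5 lower in SKOV-3. Over all genes, 36.3% were higher and 37.8% lower in PEO-4, and 33.3% and 34.5% in SKOV-3. JAK2, a kinase of the interferon gamma route, had 3.75 CPM in PEO-4, 11.4 in SKOV-3 and 27.0 in T1074 (-2.85 for PEO-4 against T1074, adjusted p = 2.72e-10). IRF1, a transcription factor that acts at the CIITA promoter, had 53.3, 30.3 and 50.8 CPM in PEO-4, SKOV-3 and T1074 and did not pass between PEO-4 and T1074 (0.07, adjusted p = 0.696). Against SKOV-3, PEO-4 had lower JAK2 (-1.60, adjusted p = 7.81e-08) and higher IRF1 (0.81, adjusted p = 0.000174). The part of this route in the CIITA levels was not tested.

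Other targets of interferon gamma followed other orders than CIITA. Of 7 tested of 10, 0 were higher and 6 lower in PEO-4 than in T1074, with a median of -2.80. The shares over all genes were 36.3% higher and 37.8% lower. GBP4, a guanylate-binding protein, had 9.87 CPM in PEO-4, 0.747 in SKOV-3 and 68.8 in T1074. IDO1, the tryptophan-degrading enzyme, had 0.0664, 66.3 and 1.22 CPM in PEO-4, SKOV-3 and T1074, so it was highest in SKOV-3, where it was higher than in T1074 by 5.66 (adjusted p = 8.95e-09). In SKOV-3, 3 of the 7 were higher and 4 lower than in T1074, beside 33.3% higher and 34.5% lower over all genes.

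Class I presentation, which displays peptides from the cytosol, was mostly lower in both carcinoma lines. In PEO-4, 7 of 10 genes were lower than in T1074 and 0 higher, and in SKOV-3, 7 were lower and 1 higher, with medians of -1.42 and -1.23. Over all genes, 37.8% were lower and 36.3% higher in PEO-4, and 34.5% and 33.3% in SKOV-3. NLRC5, the class I counterpart of CIITA, had 3.14 ± 0.737 CPM in PEO-4, 28.6 ± 3.85 in SKOV-3 and 64.6 ± 23.5 in T1074 (SD, n = 4 each), the reverse of the CIITA order. PEO-4 was lower than T1074 (log2 fold change -4.36, adjusted p = 1.82e-09) and lower than SKOV-3 (log2 fold change -3.18, adjusted p = 3.13e-08). B2M, the light chain of class I, had 317, 1481 and 2419.9 CPM in PEO-4, SKOV-3 and T1074. In PEO-4, CIITA at 13.2 CPM was above NLRC5 at 3.14 CPM, and in T1074 it was below (0.841 and 64.6 CPM), on a scale that does not take out transcript length.

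The proteases that cut CD74 and antigens in the endosome were mostly lower in PEO-4. Of 10 endolysosomal genes, 1 was higher and 8 lower in PEO-4 than in T1074 (median -1.20), and 0 were higher and 9 lower in PEO-4 than in SKOV-3 (median -1.65). Over all genes, 36.3% were higher and 37.8% lower against T1074, and 38.5% and 36.7% against SKOV-3. CTSS, the cathepsin of the last CD74 cut in antigen-presenting cells, had 1.08 ± 0.425 CPM in PEO-4, 11.2 ± 1.54 in SKOV-3 and 8.29 ± 7.63 in T1074 (SD, n = 4 each). PEO-4 was lower than T1074 (log2 fold change -2.93, adjusted p = 9.96e-05) and lower than SKOV-3 (log2 fold change -3.35, adjusted p = 2.90e-05). IFI30, a thiol reductase that unfolds antigens, had 9.35 ± 0.837, 12.8 ± 1.3 and 18.1 ± 15.7 CPM in PEO-4, SKOV-3 and T1074 (SD, n = 4 each). It passed the test between PEO-4 and T1074 (-0.96, adjusted p = 0.0450), but the T1074 libraries ran from 5.80 to 41.0 CPM and overlapped those of PEO-4. SKOV-3, in turn, had 1599 CPM of CTSD, an aspartic protease, against 172 in T1074 (3.22, adjusted p = 6.95e-10). In SKOV-3, 5 of the 10 were higher and 1 lower than in T1074, beside 33.3% higher and 34.5% lower over all genes.

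MARCHF1, a ubiquitin ligase that removes class II molecules from the surface, had 1.52 CPM in PEO-4, 5.42 in SKOV-3 and 5.49 in T1074, and was lower in PEO-4 than in T1074 (log2 fold change -1.85, adjusted p = 5.36e-06). MARCHF8, the more broadly used ligase, had 35, 84.2 and 44 CPM in PEO-4, SKOV-3 and T1074 and was lower in PEO-4 than in T1074 (log2 fold change -0.33, adjusted p = 0.0404). CD74 is also the receptor of the cytokine MIF, with CD44 as its signalling partner. CD44 had 8.46 CPM in PEO-4, 341 in SKOV-3 and 162 in T1074, so PEO-4 was lower than T1074 (log2 fold change -4.26, adjusted p = 1.14e-08) while CD74 was not called different there. MIF had 154, 278 and 168 CPM in PEO-4, SKOV-3 and T1074, and did not pass between PEO-4 and T1074 (-0.13, adjusted p = 0.407).

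Of the costimulatory genes, CD80 and CD86, the ligands of CD28 that professional presenting cells use, had at most 2 counts in any library. CD40, the receptor through which T cells license presenting cells, had 561 to 881 counts in PEO-4 libraries, 327 to 457 in SKOV-3 libraries and 0 to 1 in T1074 libraries. Its ratio to T1074 was 2590 for PEO-4 (counting interval 464 to 102320) and 1182 for SKOV-3 (212 to 46704), and PEO-4 was higher than SKOV-3 by 1.13 (adjusted p = 1.15e-05). ICOSLG, the ICOS ligand, was higher in PEO-4 than in T1074 by 3.31 (adjusted p = 5.49e-09). CD274, which encodes PD-L1, was lower there (log2 fold change -4.18, adjusted p = 2.90e-08), at 0.917 CPM in PEO-4, 0.280 in SKOV-3 and 16.7 in T1074. Of the 8 tested genes of this list, 3 were higher and 5 lower in PEO-4, and 3 were higher and 4 lower in SKOV-3, against T1074. The list also holds CD274 and PDCD1LG2, which encode inhibitory ligands. Both are among the lower genes in PEO-4 and in SKOV-3, so these counts do not describe costimulation alone. The shares over all genes were 36.3% higher and 37.8% lower in PEO-4, and 33.3% and 34.5% in SKOV-3.

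Chromatin regulators known to act at class II genes showed no common direction: 4 of 11 were higher and 5 lower in PEO-4, and 4 were higher and 4 lower in SKOV-3, against T1074. Over all genes, 36.3% were higher and 37.8% lower in PEO-4, and 33.3% and 34.5% in SKOV-3. These counts thus do not set the regulators apart from all genes. KAT2B, an acetyltransferase partner of CIITA, had 3.66 CPM in PEO-4, 13.0 in SKOV-3 and 36.3 in T1074. EZH2, the methyltransferase of Polycomb, had 17.0, 12.7 and 29.6 CPM in PEO-4, SKOV-3 and T1074, and was lower than in T1074 in PEO-4 (-0.80, adjusted p = 0.000183) and in SKOV-3 (-1.22, adjusted p = 4.27e-06). SMARCA4, a remodelling ATPase linked to class II induction, was higher than in T1074 in PEO-4 (1.15, adjusted p = 4.26e-06) and in SKOV-3 (0.55, adjusted p = 0.00321). DNMT3B, a DNA methyltransferase, had 2.44 CPM in PEO-4, 49.3 in SKOV-3 and 8.20 in T1074.

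**Figure D5:**
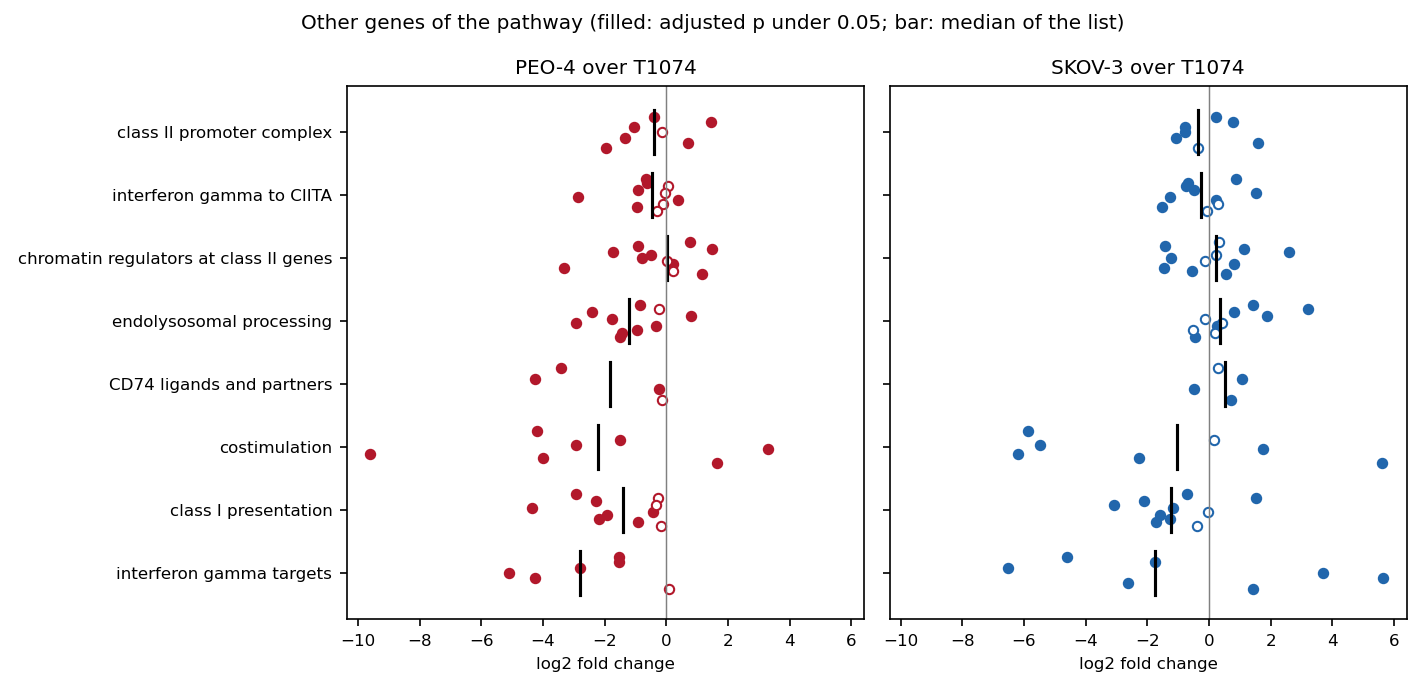
Log2 fold changes (horizontal axis) of the genes in 8 lists around class II presentation, PEO-4 over T1074 on the left and SKOV-3 over T1074 on the right, with 1 point a gene, filled where the adjusted p is under 0.05, a bar at the median of all tested genes of the list, and no point for genes with 3 or fewer counts in a line. Endolysosomal processing has medians of -1.20 in PEO-4 and 0.35 in SKOV-3, and class I presentation of -1.42 and -1.23.

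Marker lists of immune cells were read beside these values, and their part in the class II levels was not tested. The summed level of 6 leukocyte markers was 142 to 152 CPM in PEO-4 libraries, 8.07 to 11.5 in SKOV-3 libraries and 1.76 to 3.21 in T1074 libraries, the order of CIITA. In PEO-4 it came from ITGB2 (78.0 ± 4.02 CPM) and CORO1A (68.4 ± 3.8 CPM, SD, n = 4 each), while PTPRC, the defining leukocyte gene, was at 0 in all 4 PEO-4 libraries. Of the tested markers, only ITGB2 had the order of CIITA. CORO1A was lower in SKOV-3 (0.460 CPM) than in T1074 (2.26 CPM), and LAPTM5 was highest in SKOV-3 (1.85 CPM). The B cell list summed to 1.62 to 3.60 CPM in PEO-4 libraries, 0 to 0.0642 in SKOV-3 libraries and 0.0746 to 0.251 in T1074 libraries, with MS4A1 at 0 and CD22 at 52 to 126 counts in PEO-4. The monocyte list summed to 0.752 to 1.13, 0.278 to 0.553 and 1.67 to 7.79 CPM in PEO-4, SKOV-3 and T1074, and CD163 was at 0 in all 12 libraries. The dendritic cell list summed to 10.6 to 23.7, 2.53 to 4.79 and 26.1 to 77.5 CPM in PEO-4, SKOV-3 and T1074, mostly LAMP3, with CLEC9A and FCER1A at 0 in all 12 libraries. FLT3, of the same list, had the order of CIITA, at 35 to 63 counts in PEO-4 libraries, 2 to 6 in SKOV-3 libraries and 0 to 1 in T1074 libraries. The other tested genes of the list did not: ITGAX had 0.0611, 1.60 and 0.134 CPM in PEO-4, SKOV-3 and T1074, and LAMP3 was highest in T1074. The T cell list reached at most 0.137 CPM in any library, with CD3D at 0.

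The genes most like CD74 and HLA-DRA over the 12 libraries were named by Pearson's r of log2 CPM among 14945 genes, as a description. For CD74 they were DNASE1 (r = 0.982), CNNM1 (0.981), LYSMD2 (0.980), CTF1 (0.978) and ADAMTSL2 (0.977), and 127 genes reached at least 0.95. These 5 were low in SKOV-3: DNASE1 had 12.4 CPM in PEO-4 and 3.28 in SKOV-3, against 13.2 in T1074. For HLA-DRA they were ENSG00000284797, KLK5, OBP2B, KLK6 and KLK7, all with r of 0.999, and 698 genes reached at least 0.95. KLK5, KLK6 and OBP2B were at 0 in SKOV-3 and T1074 and had 60.8, 42.8 and 49.8 CPM in PEO-4. Any gene present in PEO-4 alone comes close to HLA-DRA on this measure, because the points are 4 libraries each of 3 lines.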

How the data were processed

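The 4 libraries of each of the lines PEO-4, SKOV-3 and T1074 were sequenced as rRNA-depleted, strand-specific paired-end RNA. The labels give the molecule as protein, but the values are RNA-seq. Per the labels and the study's methods, the authors used bcl2fastq 2.20.0.422, Trimmomatic 0.39, STAR 2.7.3a and RSEM 1.3.1 with hg38 and Gencode 39; whether counting used strand is not given in the sources used here. The deposited tables hold expected counts per transcript, estimated by the authors with RSEM, and the authors' TPM values for 244939 transcripts. TPM was used only to order genes within a line.

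Expected counts were summed by gene ID (61533, of which 61415 matched GENCODE 44, the source of symbols and positions), rounded, filtered with filterByExpr by line, scaled by TMM and fitted with edgeR 4.0.16 (R 4.3.3) in 1 quasi-likelihood model of all 12 libraries without a block. Contrasts were called at a Benjamini-Hochberg adjusted p under 0.05 over all 19898 genes (76043 transcripts). CPM used TMM-scaled library sizes (totals of 19780836 to 55739060, median 43154522). Where a line had 0 counts, a fold is a bound against 3 counts per library. With 12 or fewer counts in a line, the ratio of summed CPM is given with a 95% exact binomial interval. No library pair of a line agreed within sampling noise (chi-square per degree of freedom 25.2 to 314). The fit recovered known changes on simulated data, where all genes had the same set spread and only genes with higher counts were changed. That spread was not taken from these libraries, so the simulation does not cover their noise or members with low counts. Alternatives were size factors and tests of DESeq2 1.42.0, other filters and scalings, pairwise fits, a replicate block and leaving out each library. Promoter sequences are RefSeq's. Genes named are all 10 members and listed genes of the pathway; members and lists were chosen with earlier results of these data known. Figures used Matplotlib 3.10.9.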

Additional observations from a re-analysis of the deposited data

Results flagged for a closer look

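HLA-DPB1 stood out because PEO-4 and SKOV-3 were called in opposite directions against T1074. The fitted log2 fold change of PEO-4 against SKOV-3 was 5.52 (edgeR quasi-likelihood test, adjusted p = 2.93e-07). It rests on 2 counts in all 4 SKOV-3 libraries, so the ratio of 58.5 (counting interval 15.8 to 489) is the better measure of its size. The call of PEO-4 against T1074 was lost under several settings, given below. Dixon's test for a single far library was run on 18 groups of 4 and found 0, where chance gives about 1 in 20.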

How the results depend on the processing

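Of 23 fold changes of members, 19 kept direction and call under all their alternatives (up to 21 each). HLA-DPB1 in PEO-4 against T1074 was lost with library size only (0.78, adjusted p = 0.0516), counts from length-scaled TPM (1.10, 0.0558), a required absolute change of 1 on the log2 scale (the fold limit), and without T1074 replicate 3 or 4 (adjusted p 0.0116 to 0.0628 over all alternatives). HLA-DMA in SKOV-3 against T1074 was lost with library size only, with the 8 libraries of the pair (0.79, adjusted p = 0.0583), at the fold limit and without SKOV-3 replicate 2 (0.00171 to 0.113). HLA-DMB in PEO-4 against SKOV-3 was lost only at the fold limit. CD74 in PEO-4 against T1074, never called, turned to -0.086 with library size only and ran from -0.14 to 0.44 when 1 library was left out. Library size only moved the median of all genes to -0.17, -0.23 and 0.09 in PEO-4 against T1074, SKOV-3 against T1074 and PEO-4 against SKOV-3. With the 8 libraries of the pair, 4 members were called in SKOV-3 against T1074, 2 of them higher (7 and 4 with all libraries); HLA-DRB1 and HLA-DPA1 were not tested there and HLA-DMA was not called. At the fold limit, 8265 genes were called in that comparison (13498 without it), and 0 members were lower in PEO-4 than in SKOV-3 (1 without it).

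With the replicate block, 6, 7 and 8 members were called in PEO-4 against T1074, SKOV-3 against T1074 and PEO-4 against SKOV-3, as without it, and 14413, 13094 and 14658 genes (14749, 13498 and 14963 without it). Libraries with the same number did not deviate together (correlations -0.0792 to 0.0692), so the numbers do not pair them. Without a filter on low counts, 13, 13 and 15 of 63 member transcripts were called. Depth limits HLA-DQ, HLA-DP and the SKOV-3 counts of HLA-DRB1.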
